A study of Sus scrofa with 48 samples.

Results

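Adipose tissue is a secretory organ, and the hormones and hormone-like proteins that fat cells release are called adipokines. Leptin is made in proportion to fat stores and acts through the leptin receptor to restrain appetite. Adiponectin, which circulates at high levels, acts through the receptors ADIPOR1 and ADIPOR2 and raises fatty acid oxidation and insulin sensitivity. The other secreted products studied here are resistin, the retinol carrier RBP4, the complement protease adipsin and NAMPT, an enzyme of NAD synthesis that is also found outside cells, where it has been named visfatin.

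The transcripts of 9 genes were followed, chosen by name with earlier results of these data known. The secreted products were LEP (leptin), ADIPOQ (adiponectin), RETN (resistin), NAMPT, RBP4 and CFD (adipsin, or complement factor D). The receptors were LEPR, ADIPOR1 and ADIPOR2. These genes are 9 of the 12902 gene symbols on a porcine oligonucleotide microarray. The members were all probes whose gene name, or the gene of whose sequence accession, was one of these symbols. That gave 32 probes, each of 60 bases. The scanner software marks each spot that stands well above background, and a probe was kept if 9 or more of the 12 arrays in any group carried that mark. This held for 29 of the 32 probes, of 8 genes.

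RNA came from the dorsal subcutaneous adipose tissue (SCAT) of 48 Large White barrows aged 132 days, with 1 array per pig. Each pig belonged to 1 of 4 groups of 12 in a 2 x 2 design of line and diet. The lines were selected for residual feed intake (RFI), the feed eaten beyond what growth and body composition predict, so that low RFI pigs are the efficient ones and high RFI pigs the less efficient. The HF diet was high in fat and fiber, with plant oils and wheat straw in place of part of the starch, and the LF diet was low in both and rich in starch. Both were eaten ad libitum. Each group came from 1 of the 2 lines, which were selected divergently, so that no unselected pigs were included. The tissue is a mixture of cells, and for every level given here fewer cells of a type and less RNA per cell cannot be told apart.

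On each array between 62.2% and 81.9% of the probes were well above background, no spot was saturated, and arrays correlated at 0.962 to 0.991 over the kept probes. Adipocyte markers defined the tissue: 12 of the 14 listed genes were measured, and their summed level lay between 11.35 and 11.90 on the log2 scale on all 48 arrays. All levels below are the log2 of the background-subtracted spot intensity minus the median of the same array over the kept probes, so that 0 is the level of that array's median kept probe. Levels of different probes were not compared, since probes bind with different strength.

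The probes are named by gene and by the base of the transcript record at which the array files place their start, or by the probe's own name where no start is given. Sequences are shown for those lying in coding sequence that the results turn on, 5′ to 3′, from the array files. Capitals mark the stretch that the ADIPOR2 probes at bases 708 and 713 share. The sequences shown for LEP base 1074 and RETN base 132 are each carried whole by a further probe of the gene.
LEP base 1074: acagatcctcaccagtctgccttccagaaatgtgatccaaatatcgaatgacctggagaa
ADIPOQ base 484: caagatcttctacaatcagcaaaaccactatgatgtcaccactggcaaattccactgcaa
ADIPOR1 base 605: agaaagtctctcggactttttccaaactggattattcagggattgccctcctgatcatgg
ADIPOR1 base 973: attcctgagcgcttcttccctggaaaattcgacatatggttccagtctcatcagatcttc
ADIPOR2 base 708: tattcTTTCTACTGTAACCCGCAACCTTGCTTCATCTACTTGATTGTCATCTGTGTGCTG
ADIPOR2 base 713: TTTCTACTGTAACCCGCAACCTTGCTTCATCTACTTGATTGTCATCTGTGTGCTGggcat
RBP4 base 218: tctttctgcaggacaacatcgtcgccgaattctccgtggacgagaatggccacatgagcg
RBP4 base 512: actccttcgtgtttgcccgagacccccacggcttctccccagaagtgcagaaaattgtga
RETN base 132: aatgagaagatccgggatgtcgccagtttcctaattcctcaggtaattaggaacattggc

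The probes of a gene are not independent measurements of it. The LEP probe O15019 has the same 60 bases as LEP base 1074, and ADIPOR2 probes O13159 and A_72_P016016 are identical to each other. The spots of these pairs serve as technical repeats: over the 48 arrays the ADIPOR2 pair correlated at 0.997 with a median absolute difference of 0.02 on the log2 scale, and the dimmer LEP pair at 0.979 with 0.11. The ADIPOR2 probes at bases 708 and 713 share 55 bases.

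Diet was compared over all 48 arrays, 24 HF against 24 LF pigs, in a limma model with the 4 group means, two-sided. Calls followed the study's definition of a differentially expressed probe: the fold change had to exceed 1.1, the unadjusted p had to be below 0.01, and the p adjusted over all 44356 kept probes (Benjamini-Hochberg) below 0.08. Leptin was called lower with the HF diet with 3 of 3 probes, NAMPT with 2 of 3, ADIPOR2 with 3 of 5 and ADIPOR1 with 1 of 3. Adiponectin was called higher with 2 of 9 probes. In all, 11 of the 29 probes were called, 9 lower and 2 higher with HF, where 13.1% of all kept probes were called, 7.44% lower and 5.61% higher. With 1 probe per gene, the brightest, 3 of the 8 genes were called (LEP, NAMPT and ADIPOR2, all lower), against 12.7% of 11097 genes. The members' share is above the background, but several of the called probes measure the same transcript. The members were also chosen with earlier results of these data known.

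Leptin showed the largest difference of any member. With LEP base 1074 the 12 HF low RFI pigs ranged from -2.33 to -0.17 with a median of -1.20, and the 12 HF high RFI pigs from -1.97 to -0.43 with a median of -0.83. The LF low RFI pigs ranged from -0.96 to 0.59 around a median of -0.65, and the LF high RFI pigs from -0.96 to 0.65 around -0.35. The diets overlapped, but 12 of the 24 HF pigs lay below the lowest LF pig and 22 of 24 below the LF median. The level was 1.66-fold lower with HF (log2 fold change -0.73, SE 0.15, n = 24 per diet, limma adjusted p = 0.00129). The second spot of the same sequence gave -0.69 (SE 0.14, adjusted p = 0.000855).

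The third leptin probe, at base 3082, is the brightest of the gene and stands for it where 1 probe per gene is counted. HF pigs ranged from 2.16 to 4.48 with a median of 3.59, and LF pigs from 3.48 to 4.99 with a median of 4.11. As with the coding probe the HF group reached much lower, with 11 HF pigs below the lowest LF pig. Its log2 fold change was -0.67 (SE 0.16, limma adjusted p = 0.00494). A further spot without a gene name carries the sequence of LEP base 3082 and lies outside the rule, and it gave -0.66 (SE 0.15, limma adjusted p = 0.00334).

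NAMPT makes nicotinamide mononucleotide, the rate-limiting step by which cells recycle nicotinamide to NAD. With NAMPT base 1789 the HF low RFI pigs ranged from -0.04 to 0.77 (median 0.55) and the HF high RFI pigs from -0.51 to 0.93 (median 0.51). The LF low RFI pigs ranged from 0.19 to 1.24 (median 0.90) and the LF high RFI pigs from 0.36 to 1.87 (median 0.78). The groups overlapped, yet 23 of 24 HF pigs lay below the LF median and 8 LF pigs lay above every HF pig. The level was 1.36-fold lower with HF (log2 fold change -0.45, SE 0.10, limma adjusted p = 0.00221).

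The NAMPT probe at base 2257 gave the same picture, with HF pigs from -0.41 to 1.13 and LF pigs from 0.12 to 2.10, of which 12 lay above every HF pig. Its log2 fold change was -0.47 (SE 0.11, limma adjusted p = 0.00278). The remaining NAMPT probe, O12095, did not share it: HF pigs ranged from -1.87 to -0.50 and LF pigs from -1.89 to -0.32, with a difference of -0.07 (SE 0.11, limma adjusted p = 0.751). After the group means were removed, the first pair of probes correlated at 0.946 over the 48 arrays, whereas O12095 correlated with them at -0.414 and -0.470. The record that the files give for O12095 is the human transcript, while that of the other pair is porcine. Human records are also given for ADIPOQ O15012 and for ADIPOR2 O13159, whose bases equal those of a probe with a porcine record. Whether O12095 binds the pig transcript was not tested.

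ADIPOQ encodes adiponectin, which fat cells assemble into multimers before secretion. Its 9 kept probes were all higher with HF, by 0.11 to 0.24 on the log2 scale, but the call held for 2 of them. With ADIPOQ base 484 the HF low RFI pigs ranged from 5.55 to 6.13 (median 5.88) and the HF high RFI pigs from 5.44 to 5.85 (median 5.66). The LF low RFI pigs ranged from 5.10 to 6.05 (median 5.75) and the LF high RFI pigs from 5.01 to 5.72 (median 5.49). The diets overlapped widely, with 18 of 24 HF pigs above the LF median and 7 LF pigs below every HF pig. The level was 1.18-fold higher with HF (log2 fold change 0.24, SE 0.06, limma adjusted p = 0.0113).

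ADIPOQ base 770 was 1.14-fold higher (0.19, SE 0.06, limma adjusted p = 0.0287), with HF pigs from 6.75 to 7.39 and LF pigs from 6.36 to 7.35. An unnamed spot with its sequence gave 0.19 (SE 0.06, limma adjusted p = 0.0433). Further spots outside the rule share sequence with other members. For diet that of NAMPT was called (-0.47), and those of ADIPOR1 (-0.17), ADIPOR2 (-0.15) and CFD (0.22 and 0.19) were not. The other 7 ADIPOQ probes did not pass. The closest was base 2134 at 0.15 (SE 0.06, limma adjusted p = 0.0746), which missed only the raw p limit. Bases 2134 and 1496 were called when the replicate number, which same-numbered pigs share with a slide and a scan day, was fitted as a block. Over all 18 settings of the processing base 2134 was called in 9 and base 1496 in 1. The brightest, base 2461, differed by 0.11 (SE 0.06, limma adjusted p = 0.256). The mean of all 9 probes differed by 0.15 (SE 0.05, limma adjusted p = 0.0567) and was called. The 36 pairs of ADIPOQ probes correlated at 0.114 to 0.974, with a median of 0.606, after the group means were removed.

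The adiponectin receptors are membrane proteins that couple the hormone to AMPK and to ceramide breakdown. With ADIPOR2 base 2389 the HF low RFI pigs ranged from 8.62 to 9.18 (median 8.94) and the HF high RFI pigs from 8.57 to 9.19 (median 8.86). The LF low RFI pigs ranged from 8.87 to 9.32 and the LF high RFI pigs from 8.82 to 9.31 (median 9.03). The diets overlapped, with 6 HF pigs below every LF pig and 8 LF pigs above every HF pig. The level was 1.15-fold lower with HF (log2 fold change -0.20, SE 0.04, limma adjusted p = 0.00184).

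The identical ADIPOR2 spots O13159 and A_72_P016016 were also lower with HF, at -0.25 each (SE 0.06, limma adjusted p = 0.00279 and 0.00293). In the second of these, HF pigs ranged from 7.25 to 8.02 and LF pigs from 7.48 to 8.22, and 23 of 24 HF pigs lay below the LF median. The coding probes at bases 708 and 713 had the same sign at -0.16 each, with an SE of 0.09 and 0.08, and were not called (limma adjusted p = 0.22 and 0.227).

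ADIPOR1 was called with 1 of its 3 probes. With ADIPOR1 base 605 the HF pigs ranged from -1.52 to -0.84 (median -1.10) and the LF pigs from -1.37 to -0.49 (median -0.91), and 23 of 24 HF pigs lay below the LF median. The log2 fold change was -0.16 (SE 0.06, limma adjusted p = 0.0595), a 1.12-fold difference close to the limit of the call. Probe O10680 gave -0.15 (SE 0.06, adjusted p = 0.086) and base 973 gave -0.17 (SE 0.07, adjusted p = 0.109), so the 3 probes had nearly the same difference. Both were called with the replicate block. The call at base 605 held in 8 of 18 settings of the processing.

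LEPR, the leptin receptor, had 1 probe on the array, and 0 of 48 arrays showed it well above background, so nothing can be said of its level or of diet. An unnamed spot with the same sequence was likewise above background on 0 arrays.

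CFD encodes adipsin, the protease that cleaves complement factor B, and it was represented by 1 kept probe. HF low RFI pigs ranged from 6.53 to 7.25 (median 6.89) and HF high RFI pigs from 6.62 to 7.39 (median 7.06). LF low RFI pigs ranged from 6.06 to 7.57 (median 6.53) and LF high RFI pigs from 6.48 to 7.79 (median 6.84). The LF pigs spread more widely than the HF pigs at both ends, although 22 of 24 HF pigs lay above the LF median. The difference of 0.22 (SE 0.09, limma adjusted p = 0.0903) did not pass the call.

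RBP4 carries retinol in blood and is made by liver and adipose tissue. None of its 4 probes was called for diet. With RBP4 base 857, the brightest, HF pigs ranged from 4.75 to 5.90 (median 5.31) and LF pigs from 4.50 to 5.94 (median 5.17), with a difference of 0.17 (SE 0.09, limma adjusted p = 0.261). RBP4 base 218 differed by 0.21 (SE 0.11, limma adjusted p = 0.245), O11669 by 0.18 (SE 0.11, limma adjusted p = 0.304) and base 512 by 0.01 (SE 0.08, limma adjusted p = 0.973).

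RETN encodes resistin, a small cysteine-rich protein. Of its 3 probes, the 2 with the base 132 sequence were well above background on no array, and base 375 was kept. With HF it was well above background on 10 arrays of low RFI and 9 of high RFI pigs, and with LF on 11 and 12. Its level lay between -4.92 and -2.53, near the lower limit of detection. The diet difference of -0.14 (SE 0.13, limma adjusted p = 0.56) did not pass.

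**Figure D1:**
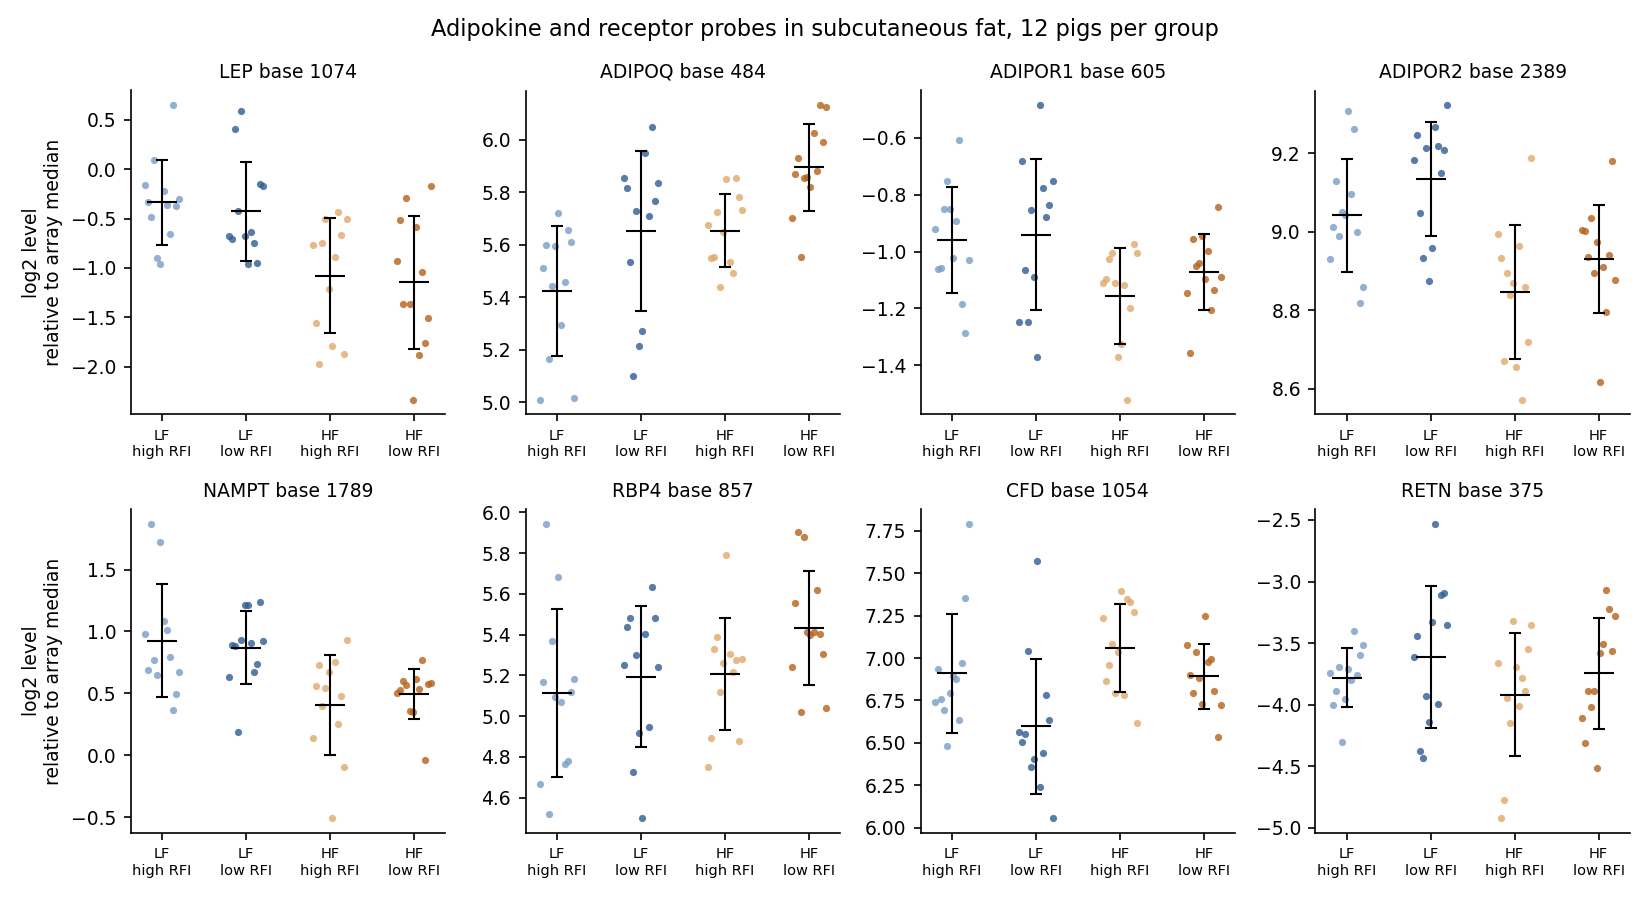
Level of 1 probe for each of 8 genes in the 4 groups of 12 pigs, as the log2 of the processed intensity minus the array median. For LEP, ADIPOQ, ADIPOR1 and NAMPT the probe drawn is not the brightest of the gene. The brightest probes of ADIPOQ and ADIPOR1 were not called for diet. Each point is 1 pig, and the bar gives the group mean with its SD. The LEP panel shows HF pigs reaching down to -2.33 while no LF pig lies below -0.96.

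Since the array files give slides and scan days, the diet differences were also taken within them. Each of the 6 slides held 8 arrays, 2 of each group. All 3 LEP probes were lower with HF on 6 of 6 slides, with differences from -0.99 to -0.48 for LEP base 1074. NAMPT bases 1789 and 2257 and the ADIPOR2 probes at base 2389, O13159 and A_72_P016016 were also lower on 6 of 6, and ADIPOQ bases 484 and 770 were higher on 6 of 6. ADIPOR1 base 605 was lower on 5 of 6 slides and CFD higher on 5 of 6. Between the first and the second scan day, with 24 arrays each, the difference of LEP base 1074 was -0.78 and -0.68, that of NAMPT base 1789 was -0.46 and -0.44, and that of ADIPOQ base 484 was 0.23 and 0.24. ADIPOR2 base 2389 differed by -0.13 on the first day and -0.27 on the second.

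**Figure D2:**
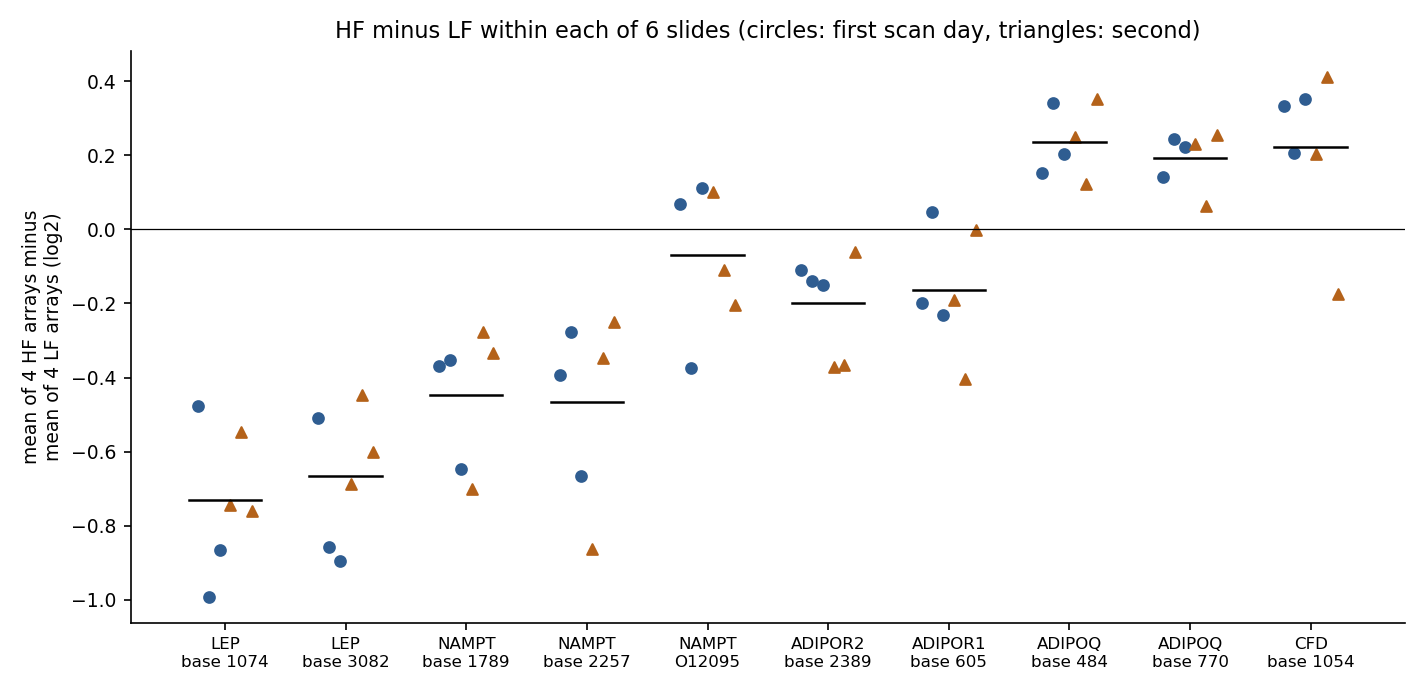
Difference between HF and LF pigs on each of the 6 slides, in log2 units, for 10 probes. Each point is the mean of 4 HF arrays minus the mean of 4 LF arrays of 1 slide. The LEP points all lie below 0, and those of ADIPOQ base 484 all above it.

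Levels of cell type markers were set beside these differences. The summed level of the adipocyte markers was 11.57 ± 0.12 (SD, n = 24) with HF and 11.68 ± 0.14 with LF, on the log2 scale. Of the 12 measured adipocyte markers, CIDEA (-0.36, limma adjusted p = 0.0149) and CEBPA (-0.14, limma adjusted p = 0.0581) were called lower with HF, and the list's median difference was -0.10 against -0.04 for all genes. PLIN1, the coat protein of lipid droplets, differed by 0.02 and the fatty acid carrier FABP4 by -0.11, and neither was called. When the mean of the adipocyte markers on each array entered the model as a covariate, a fit chosen after the data were seen, LEP base 1074 stayed lower at -0.67, NAMPT base 1789 at -0.37 and A_72_P016016 of ADIPOR2 at -0.16, all called. ADIPOR2 base 2389 had a difference of -0.14 and was no longer called, and ADIPOQ base 484 was higher at 0.29. The CFD difference was then 0.09 (limma adjusted p = 0.445).

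Other cells of the tissue were followed by their own markers. The summed log2 level of 11 macrophage markers ranged from 4.75 to 6.90 with HF and from 4.98 to 7.05 with LF, and none was called for diet. The 6 endothelial markers ranged from 7.76 to 8.44 and 7.69 to 8.55, also with none called. The 8 fibroblast and preadipocyte markers ranged from 9.65 to 10.49 and 9.53 to 10.64, of which PDGFRA was called higher (0.31). Among 6 neutrophil markers, with sums of 4.002 to 5.29 and 3.77 to 5.32, CXCR2 was called lower (-0.25), while the list's summed level averaged 4.58 with HF and 4.46 with LF. The 8 muscle markers summed to 4.69 to 5.999 and 4.77 to 6.25, and the 4 blood cell markers to 3.78 to 5.59 and 3.85 to 5.78, with none called. MPO of neutrophils and MB, MYH4 and TTN of muscle were on the array but did not pass the background filter. Their part in the leptin, NAMPT or receptor differences was not tested.

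The line comparison set 24 low RFI against 24 high RFI pigs in the same model. Here 2 of the 29 probes were called, both of adiponectin and both higher in low RFI pigs, where 1.37% of all kept probes were called and 0.809% higher. With the brightest probe of each gene, 0 of 8 were called. Both calls belong to 1 gene, and the mean of its 9 probes, at 0.15 (SE 0.05, limma adjusted p = 0.213), was not called.

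With ADIPOQ base 484, low RFI pigs ranged from 5.10 to 6.13 (median 5.84) and high RFI pigs from 5.01 to 5.85 (median 5.58). The lines overlapped, but 11 of 24 low RFI pigs lay above every high RFI pig. The level was 1.18-fold higher in low RFI pigs (log2 fold change 0.24, SE 0.06, limma adjusted p = 0.0549). ADIPOQ base 770 was 1.16-fold higher (0.21, SE 0.06, limma adjusted p = 0.068), with 8 of 24 low RFI pigs above every high RFI pig. The other 7 ADIPOQ probes had the same sign, at 0.12 to 0.14, and were not called. With arrays scaled to the 75th percentile or by quantiles, 0 of the 29 probes were called for line.

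Both called probes were higher in low RFI pigs on 6 of 6 slides. The line difference of ADIPOQ base 484 was 0.17 on the first scan day and 0.30 on the second, and that of base 770 was 0.19 and 0.24. With the adipocyte marker mean as a covariate, the difference at base 484 was 0.20 and no longer called (limma adjusted p = 0.116).

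CFD had the largest difference of the opposite sign. Low RFI pigs ranged from 6.06 to 7.57 (median 6.76) and high RFI pigs from 6.48 to 7.79 (median 6.91), and 5 low RFI pigs lay below every high RFI pig. The log2 fold change was -0.24 (SE 0.09), which did not pass after adjustment (limma adjusted p = 0.215). An unnamed spot of the same sequence differed by -0.22 and was not called either (limma adjusted p = 0.248).

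No probe of the other genes was called for line. LEP probes differed by -0.08 to -0.02 and NAMPT probes by -0.01 to 0.08. The 5 ADIPOR2 probes were 0.09 to 0.17 and the 3 ADIPOR1 probes 0.05 to 0.14 higher in low RFI pigs, RBP4 probes 0.07 to 0.16 and RETN base 375 0.17.

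**Figure D3:**
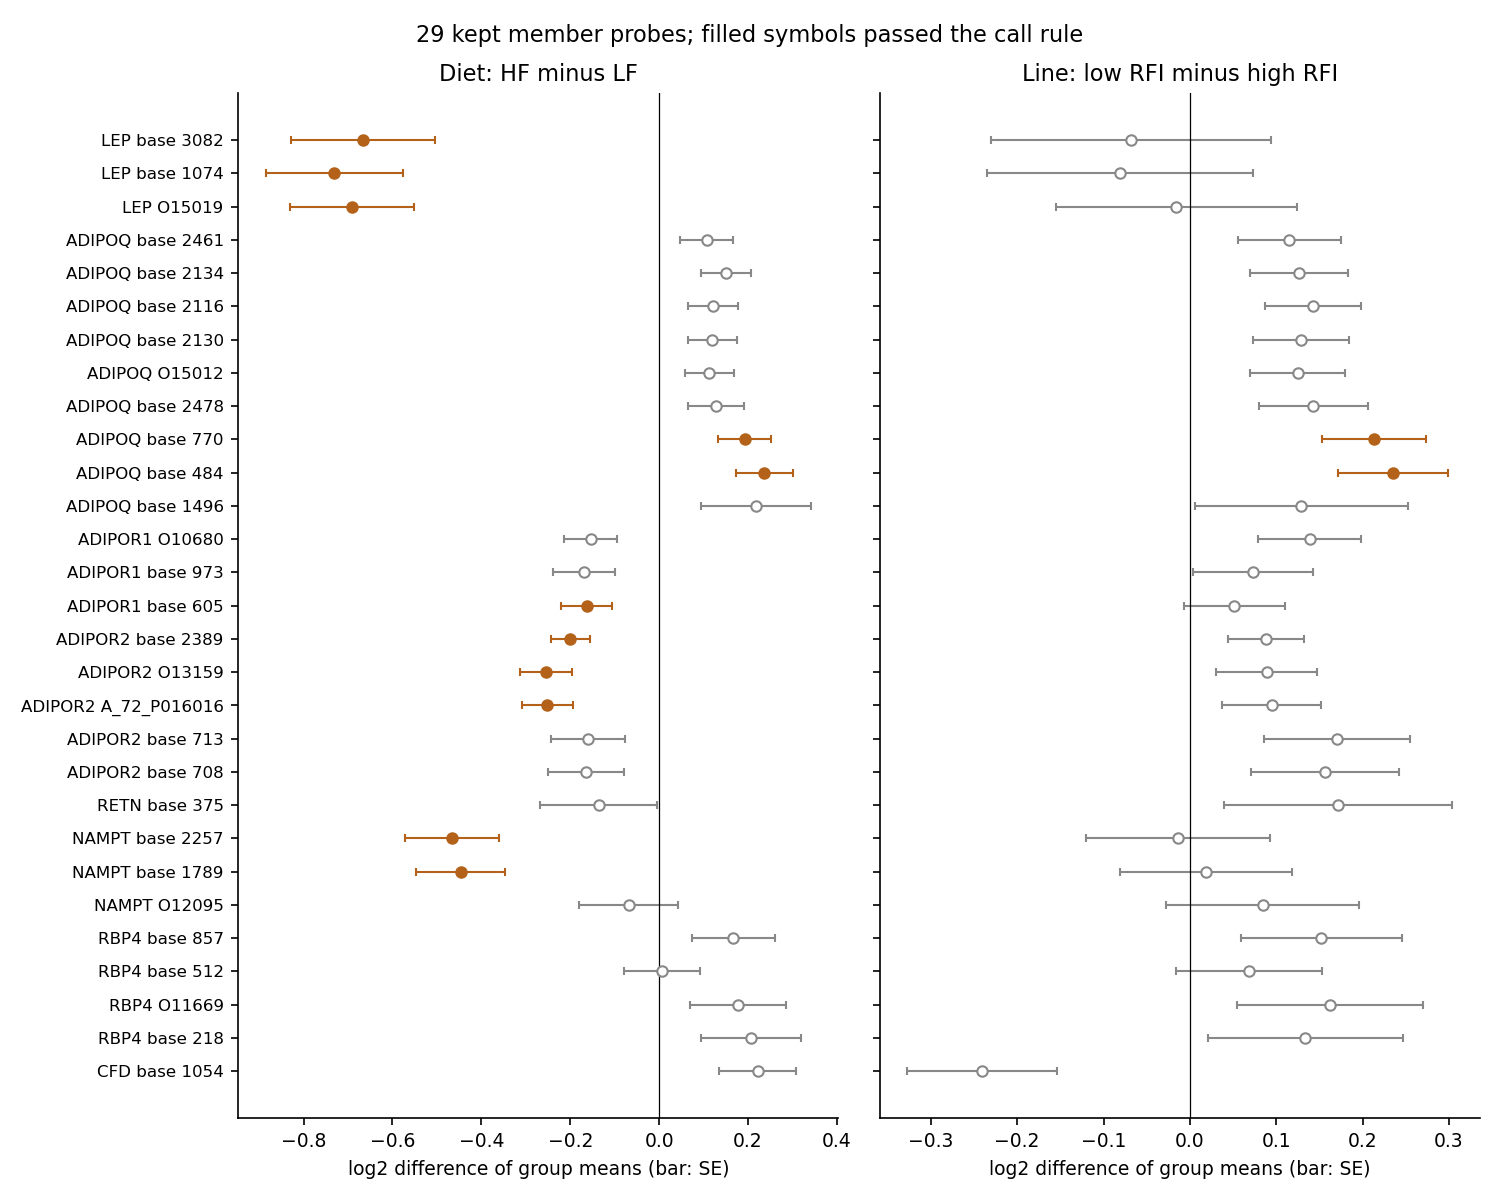
Log2 fold change of each of the 29 kept probes for diet (HF minus LF) and for line (low minus high RFI). Bars give the standard error of the fit, and filled points passed the call. The 3 LEP probes stand farthest to the left for diet, between -0.73 and -0.67, and lie near 0 for line.

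Whether the diet difference depended on line was tested by the interaction. No probe of the 29 was called by limma and none had an unadjusted p under 0.05, where 0% of all kept probes were called and 462 had an unadjusted p under 0.05. The interaction of LEP base 1074 lay within the LEP range of 0.01 to 0.04, with a standard error of up to 0.32.

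Within the low RFI line 3 of 29 probes were called for diet, against 3.04% of all kept probes: the identical LEP probes and ADIPOR2 base 2389. Within the high RFI line 5 were called, against 1.66%: LEP O15019, both NAMPT probes with a diet call, and the identical ADIPOR2 spots. With the brightest probe of each gene 1 of 8 was called in each line, against 306 (low RFI) and 172 (high RFI) of 11097 genes. LEP O15019 was lower by a similar amount in both, -0.69 in low RFI (limma adjusted p = 0.056) and -0.70 in high RFI pigs (limma adjusted p = 0.0673). NAMPT base 1789 differed by -0.37 in low RFI pigs (limma adjusted p = 0.162) and by -0.52 in high RFI pigs (limma adjusted p = 0.055). The interaction for NAMPT, which tests that gap, was not called.

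Between the lines within 1 diet, 0 of 29 probes were called by limma on the HF diet, where 0.0113% of all kept probes were called. Of the 29, 3 had an unadjusted p under 0.05, against 2226 of the 44356 kept probes. On the LF diet 0 were called, against 0.0338%, and 4 had an unadjusted p under 0.05, against 2820 of all kept probes.

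The order of the 4 group means differed among genes. Leptin with base 1074 ran from LF high RFI over LF low RFI and HF high RFI to HF low RFI. NAMPT base 1789 ran from LF high RFI over LF low RFI and HF low RFI to HF high RFI. ADIPOQ base 484 ran the other way for diet, with HF low RFI highest and LF high RFI lowest. The groups were ordered by their own means, which makes the steps between neighbours small. Of the steps of these 3 probes, that of LEP base 1074 from LF low RFI to HF high RFI passed the call, and the others were not called.

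The groups at opposite corners of the design were also compared. HF low RFI against LF high RFI pigs gave the largest adiponectin difference, 0.47 (SE 0.09, limma adjusted p = 0.00632) with ADIPOQ base 484. Called were 6 probes of 2 genes, where 2.11% of all kept probes were. With the brightest probe of each gene 0 of 8 were called, against 188 of 11097 genes. HF high RFI against LF low RFI pigs gave 10 called probes of 5 genes, against 11.9%. With the brightest probes 4 of 8 were called there, against 1348 of 11097 genes. CFD was among them at 0.46 (SE 0.12, limma adjusted p = 0.0135), 1.38-fold higher in HF high RFI pigs. At the other corner each differed little, CFD by -0.02 (limma adjusted p = 0.973) for HF low RFI against LF high RFI pigs and ADIPOQ base 484 by 0.00 (limma adjusted p = 0.997) for HF high RFI against LF low RFI pigs. These pairs differ in both diet and line.

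The genes around each member were examined from lists of known partners, with 1 probe per gene. Over 7 lists with 101 measured genes, 13 were called for diet, 2 higher and 11 lower, where 12.7% of all genes were called, 3.31% higher and 9.37% lower. The lists' share of 12.9% is close to that background. For line 2 of the 101 were called, against 1.32%.

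In leptin signalling 3 of 13 genes were called for diet, and the list's median difference was 0.00. LEPROTL1, a relative of the protein that keeps leptin receptors inside the cell, ranged from 1.87 to 2.71 with HF (median 2.34) and from 2.26 to 2.89 with LF (median 2.59). It was lower with HF (-0.27, SE 0.06, limma adjusted p = 0.000951). PTPN1, the phosphatase that switches off leptin and insulin signals, was also lower (-0.19, limma adjusted p = 0.0661). IRS1, the insulin receptor adaptor, was higher with HF, from 2.995 to 4.35 against 2.61 to 3.58 (0.35, SE 0.09, limma adjusted p = 0.00524). LEPROT differed by 0.00 and JAK2, the kinase on the leptin receptor, by 0.02, and neither was called. For line, STAT5A was higher in low RFI pigs (0.23, limma adjusted p = 0.0566).

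In adiponectin assembly and signalling 2 of 14 genes were called for diet, with a list median of -0.02. Both encode subunits of AMPK, the energy-sensing kinase downstream of the receptors: PRKAA1 (-0.16, limma adjusted p = 0.0522) and PRKAB2 (-0.16, limma adjusted p = 0.0644). CDH13, a membrane protein that binds adiponectin multimers, differed by 0.05 (limma adjusted p = 0.778), and APPL1, the adaptor on the receptors, by -0.03 (limma adjusted p = 0.808). For line, GSTK1, which promotes adiponectin assembly, was higher in low RFI pigs (0.27, limma adjusted p = 0.0505). Low RFI pigs ranged from 5.73 to 6.62 (median 6.45) and high RFI pigs from 5.45 to 6.53 (median 6.09).

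In retinol transport and storage 3 of 14 genes were called, all lower with HF, with a list median of -0.05. Those reported here are ALDH1A1 and DGAT1. ALDH1A1, which makes retinoic acid, was lower (-0.40, limma adjusted p = 0.0482), as was DGAT1, which esterifies both diacylglycerol and retinol (-0.29, limma adjusted p = 0.0474). STRA6, the RBP4 receptor, differed by -0.01 (SE 0.06, limma adjusted p = 0.959). TTR, the partner of RBP4 in blood, varied from -5.06 to 4.44 with HF and from -4.55 to 4.39 with LF and was not called (-1.18, SE 0.56, limma adjusted p = 0.173).

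The other lists held few calls. In NAD salvage 1 of 10 genes was called, the deacetylase SIRT2 (-0.15, limma adjusted p = 0.0166). In the alternative complement pathway 1 of 10 was called, CD59, an inhibitor of the membrane attack complex (-0.25, limma adjusted p = 0.00448). C3 (0.10) and CFB (-0.08), which act beside adipsin, were not called. Of 3 measured resistin-binding genes none was called by limma and none had an unadjusted p under 0.05, among them CAP1 at -0.06 (limma adjusted p = 0.453) and TLR4 at -0.05 (limma adjusted p = 0.836).

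Among 37 other secreted adipose factors 3 were called. LCN2, lipocalin 2, an iron-siderophore binding protein released by adipocytes and neutrophils, ranged from -1.03 to 2.03 with HF (median 0.37) and from -0.36 to 3.25 with LF (median 1.38). Its difference of -1.23 (SE 0.24, limma adjusted p = 0.000715) exceeded that of leptin. INHBA, a subunit of activin, was lower (-0.17, limma adjusted p = 0.0102), and FST, follistatin, which binds activin, was higher (0.38, limma adjusted p = 0.0535).

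**Figure D4:**
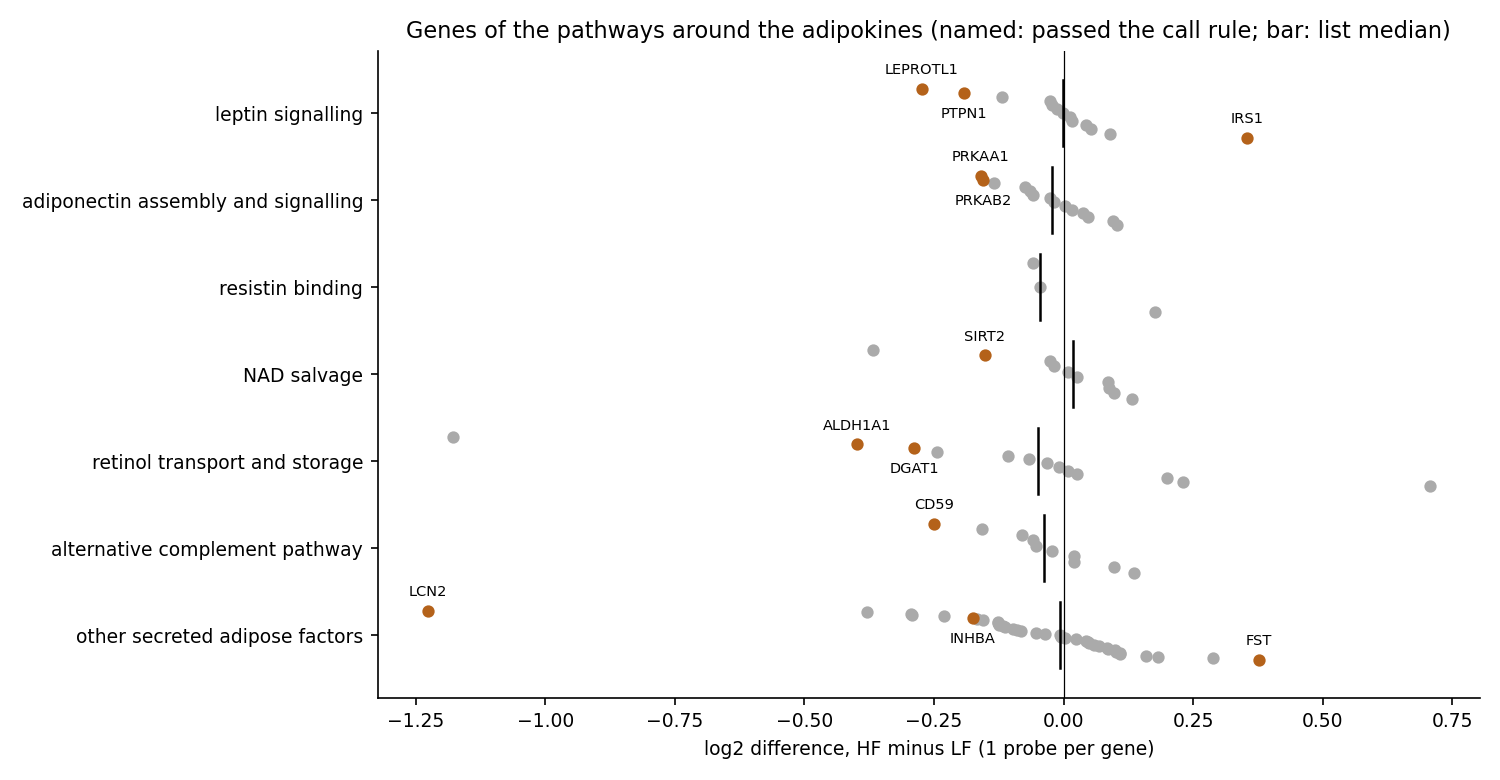
Log2 fold change for diet (HF minus LF) of the measured genes of each list, 1 probe per gene, with called genes in colour and named and a bar at the median of each whole list. A called gene that is not reported here is left out. Among the called genes drawn, LCN2 lies farthest to the left at -1.23.

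Leptin varied from pig to pig largely apart from the other members. After the group means were removed, the brightest LEP probe correlated with those of the other 7 genes at -0.184 to 0.158 over the 48 arrays. CFD correlated negatively with ADIPOR1 (-0.690), ADIPOR2 (-0.595) and ADIPOQ (-0.455). ADIPOR1 and ADIPOR2 correlated at 0.539, ADIPOQ and RBP4 at 0.487, ADIPOQ and NAMPT at 0.456, and ADIPOQ and ADIPOR2 at 0.422. All these values come from the same arrays with the same centring, and they are given as a description.

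**Figure D5:**
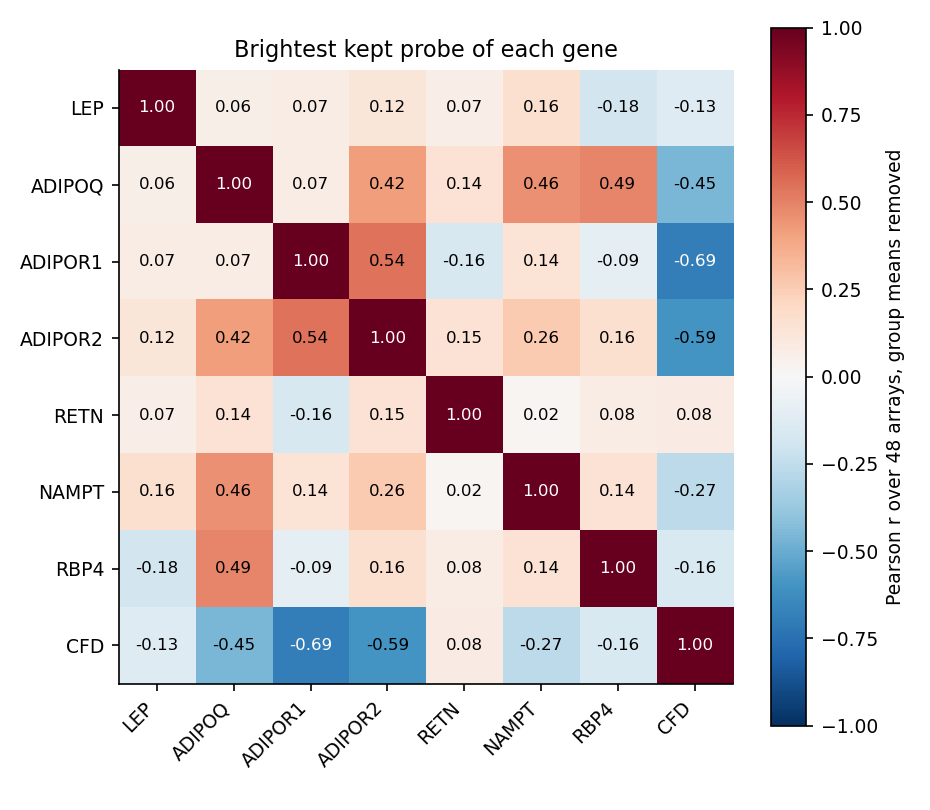
Pearson correlation between the brightest kept probes of the 8 genes over 48 arrays, after the 4 group means were removed. Red is positive and blue negative. The CFD row is blue against ADIPOR1 and ADIPOR2 at -0.69 and -0.59, and the LEP row is pale throughout.

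The gene most like LEP over the 48 arrays, out of 11096 others, was PNPLA3, a lipid droplet protein (Pearson r = 0.788, Spearman rho = 0.797, and r = 0.747 without the group means). TRAF5 and SEP5 followed at r = 0.775 and 0.743. The names SEP5 and COX1 are those of the array files and may be old, so that which genes they are is uncertain. Among the genes most like NAMPT were ZBTB11 (0.854) and COQ10B (0.845). ADIPOR1 was most like VCP (0.857), ECD (0.854) and the proteasome subunit PSMB5 (0.835), and ADIPOR2 most like COX1 and PEX13 (0.796 each) and NAA50 (0.774). ADIPOQ was most like TMEM25 (0.728), ANKRD17 (0.717) and PPP2R5A (0.695), and CFD most like C1ORF21 (0.742), ATP8B2 (0.737) and TET2 (0.730). RBP4 followed ADAMTS20 (0.717), SLC22A16 (0.617) and SON (0.610), and the dim RETN probe FSD1 (0.719), ATXN1L (0.697) and OR4S1 (0.692).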

How the data were processed

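The authors labelled 48 RNA samples with Cy3, 1 array each, on a custom Agilent design for pig, and read them with Agilent Feature Extraction 10.7.3.1 (R 2.10.0 is also listed in the submitters' processing notes). The deposited scanner files give the intensity of each spot on a linear scale, background-subtracted by that software as the processed signal used here. A deposited table holds the authors' log2 values of 38987 probes (median signal, centred on the array median) and served as an alternative. Groups came from the sample labels, and the replicates of a group are separate pigs. Their number limits the precision. Slide and scan day came from the file headers.

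Control spots (1319) were dropped and the flags for non-uniformity and population outliers set spots to missing, 156 among the 44356 kept of 60305 probes. Probes were named through accessions, gene numbers and gene names in the reference tables of Sscrofa11.1. The array build is not given in the sources used here, so no positions are printed. The log2 processed signal was centred on each array's median over the kept probes. The study's methods also centre each sample's log2 values on the median across probes. Values were fitted with limma 3.58.1 (lmFit, eBayes with trend) in R 4.3.3. Summaries used Python 3.11.15 and pandas 2.3.3, and R's data.table package (version 1.17.8). The fit was tested on simulated data.

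Under the stated limits, 43.0% of the 5790 diet calls over all kept probes were higher with HF, and 67.2% with scaling to the 75th percentile. The median over all kept probes then moved from -0.02 to 0.02, and no called member changed direction with that scaling or with quantile normalization.

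Named are every kept probe of the members; in each list the called genes, at most 4 per contrast, and up to 2 direct binders that were not called; and, for each member's brightest probe, the 3 most correlated genes. Some genes that meet this rule are counted but not reported here. CIDEA, CEBPA, PLIN1, FABP4, PDGFRA, CXCR2, LEPROT, JAK2, C3 and CFB were named after their values were seen. The members, lists and markers were chosen with earlier results of these data known. Alternatives covered scaling, background, filter, flags, slide, scan day, array position, replicate block, array weights, a median covariate, plain ANOVA, the deposited table and, for lists, the mean of a gene's probes.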

Additional observations from a re-analysis of the deposited data

How the results depend on the processing

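Over 17 alternatives the diet calls of the 3 LEP probes, of NAMPT bases 1789 and 2257 and of ADIPOR2 O13159 and A_72_P016016 were kept in nearly every setting (17 of 18 settings in all), whereas ADIPOR1 base 605 was called in 8 settings, CFD in 4, and the line calls of ADIPOQ bases 484 and 770 in 12 and 8. Of 1239 recomputed single values, 1079 kept direction and side of the call, 112 lost it, 33 gained it and 15 turned sign, none of which was past the call. Of the 29 member probes, 11 were called for diet, against 7 with the first scan day alone, 2 with the second and 17 with array weights. For line, 2 became 0 with 75th percentile or quantile scaling, with either scan day alone, with array position as a block and with the adipocyte marker covariate, 1 without the filter on dim probes, with background outlier flags, with the median covariate or with the ANOVA, and 4 with array weights. Within low RFI, 3 became 1 with 75th percentile scaling, normexp, no filter or the adipocyte covariate, 0 with either scan day or array position, and 10 with weights. Within high RFI, 5 became 3 with 75th percentile scaling or normexp, 2 with the first scan day or the adipocyte covariate, 0 with no filter, the second scan day or array position, and 8 with weights. Line within LF went from 0 to 2 with weights. Of the 101 list genes, 13 diet calls became 7 with 75th percentile scaling, 5 with the first scan day and 2 with the second. Their 2 line calls became 1 with quantile scaling, normexp, median signal, flags, the first scan day or the mean of a gene's probes, 0 with no filter, the second scan day, array position or the adipocyte covariate, and 4 with weights. A scan day alone holds 24 arrays, and the setting with no filter both centres on and adjusts over more probes. The cause of these changes was not tested.

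None of the values that turned sign was called. For diet they were NAMPT O12095 with the median covariate (0.11) and RBP4 base 512 with no filter (-0.000504), the second scan day (-0.0063), array position (-0.0176) and weights (-0.0216). For line on the first scan day they were ADIPOR1 base 605 (-0.039), LEP base 3082 (0.0223), base 1074 (0.10) and O15019 (0.13), NAMPT base 1789 (-0.17) and RETN (-0.025). The rest were NAMPT base 2257 for line with the second scan day (0.22) and the median covariate (0.0308), O12095 with the second scan day (-0.0634) and base 1789 with the adipocyte covariate (-0.0423).

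Same-numbered pigs always shared a slide and a scan day. Their deviations correlated over 0.1 in 45 of 72 pairs (-0.217 to 0.453, median 0.165), not in every pair, and the fit without the block stayed the reported one. A replicate block gave 15 diet calls among the members, adding ADIPOQ bases 2134 and 1496 and ADIPOR1 base 973 and O10680, and 2 line calls, 0 for the interaction, 3 and 6 within low and high RFI (LEP base 1074 added in high RFI), 0 and 0 for line within HF and LF, and 14 and 2 among the list genes. Over all probes the 606 line calls became 1140 with it, 957 with slide as a block, 399 without the filter, 262 with array position, 1820 with weights and 1 with the second scan day alone. The 5790 diet calls became 2407 and 1230 with the first and second scan day. Signal over background limits RETN and LEPR, and differences under about 1.1-fold are outside the call by construction.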
